A study of Rattus norvegicus with 174 samples.

Results

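Cytochrome P450 enzymes are heme proteins that oxidise drugs, fatty acids, bile acids, sterols, steroids and vitamins. Those of the endoplasmic reticulum take their electrons from NADPH through one shared flavoprotein, NADPH-cytochrome P450 reductase (gene Por), and those of mitochondria through ferredoxin. Families 1 to 3 are known for the clearance of foreign chemicals and are richest in liver, while family 4 hydroxylates fatty acids and the higher families mostly make or break down bile acids, sterols, steroid hormones and the vitamins A and D. The genes described here are those whose array symbol starts with Cyp and a digit, with Por added, taken from probe sets that list a single gene and, where a gene has several, from the brightest by its mean over all arrays. This gave 56 genes of the 13438 measured, from 64 probe sets, and 10 probe sets that list several genes were not used. By role they comprised 30 genes of families 1 to 3, 9 of family 4, 6 of bile acid and oxysterol metabolism, 5 of steroid hormone synthesis, 3 of vitamin A and D metabolism, the sterol enzyme Cyp51, Cyp20a1, whose substrate is not established, and Por.

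Adult male Sprague-Dawley rats, an outbred stock, breathed phosphine, a toxic fumigant gas, in a whole-body chamber at 660 ppm for 32.2 min (21252 ppm x min), or air. Liver, kidney, lung, heart and brain were taken 1, 3, 6 and 24 h later from 4 rats per group, except that the 6 h air groups had 2 rats, and the organs of each rat were measured in parallel. Blood came from 4 exposed and 4 air rats at 1 and 3 h and from 5 exposed and 1 air rat at 6 h. All rats, those of the air groups included, were given ketamine and xylazine before they were bled out, and organs were frozen whole, so that in these bulk samples fewer cells of a type and less RNA per cell cannot be told apart. Values are log2 array signals, a difference is exposed minus air on that scale, given ± its limma SE (1 is a fold of 2), and a gene is called where its Benjamini-Hochberg adjusted p (padj) over all 13438 genes is under 0.05.

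Of 1288 tests of a member in a comparison, 16 were called, 12 higher and 4 lower after phosphine, and they fell on 8 genes. Por was called in 6 comparisons, Cyp2u1 in 3, Cyp2s1 in 2, and Cyp7a1, Cyp51, Cyp1b1, Cyp27b1 and Cyp17a1 in 1 each. The other 48 members, among them the abundant drug-metabolising enzymes of liver, were called nowhere. Of the 16 calls, 4 were at 1 h, 10 at 3 h, 2 at 6 h and none at 24 h. Calls over all genes followed the same course. In liver, kidney and lung 3.85%, 6.39% and 11.6% of all genes were called at 3 h, and 0%, 0% and 0.00744% at 24 h. By tissue, kidney held 8, lung 4, liver 3 and heart 1, and brain and blood none. At 3 h, 3.33% of all genes were called in heart, 0.506% in brain and 6.6% in blood.

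The start regions of Por, Cyp2u1 and Cyp2s1 are shown because these are the members called in more than 1 comparison, Por and Cyp2u1 in opposite directions. Each window runs from 250 bases before to 50 bases after the RefSeq start in GRCr8, 5′ to 3′ along the gene, with the core of the Ah receptor element (GCGTG, or CACGC where it lies on the other strand) in capitals. The windows are chr12:26635760-26636059 (Por), chr2:222540940-222541239 (Cyp2u1) and chr1:90453024-90453323 (Cyp2s1), all 3 on the minus strand. The Por start used by that table lies 19803 bases inside the gene's outermost RefSeq end, that of Cyp2u1 66 and that of Cyp2s1 0, so that the Por window is at an internal start.
Por: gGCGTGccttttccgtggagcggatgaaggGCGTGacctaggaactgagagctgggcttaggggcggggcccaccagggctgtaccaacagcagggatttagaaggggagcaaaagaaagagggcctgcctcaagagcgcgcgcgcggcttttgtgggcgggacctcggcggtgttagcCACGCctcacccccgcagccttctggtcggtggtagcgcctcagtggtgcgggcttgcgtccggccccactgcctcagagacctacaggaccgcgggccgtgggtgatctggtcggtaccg
Cyp2u1: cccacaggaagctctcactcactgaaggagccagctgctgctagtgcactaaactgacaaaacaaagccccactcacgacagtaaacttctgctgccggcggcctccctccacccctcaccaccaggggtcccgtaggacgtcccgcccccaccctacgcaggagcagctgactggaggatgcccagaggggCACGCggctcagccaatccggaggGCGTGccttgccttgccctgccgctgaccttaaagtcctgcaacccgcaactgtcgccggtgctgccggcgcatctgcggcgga
Cyp2s1: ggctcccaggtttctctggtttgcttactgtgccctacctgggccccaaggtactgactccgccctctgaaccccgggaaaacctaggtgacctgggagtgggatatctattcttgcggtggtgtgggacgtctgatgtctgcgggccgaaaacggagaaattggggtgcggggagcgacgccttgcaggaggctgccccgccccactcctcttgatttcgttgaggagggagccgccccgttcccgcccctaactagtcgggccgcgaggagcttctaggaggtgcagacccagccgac
Por held 3 copies of the core, at -249, -220 and, on the other strand, -71 from the start, Cyp2u1 held 2, at -34 and, on the other strand, -58, and Cyp2s1 none. The core is common: 29.7% of all 33469 promoter windows of that length held it on either strand, and 12 of the 45 members with a window (26.7%). A motif of the sterol response element (TCACNCCAC, on either strand) was in 1.12% of all windows and in 0 of the 45 members, Cyp51 included. Part of the glucocorticoid response element (AGAACA, on either strand) was in 20.7% of all windows and in 11 of the 45, among them Cyp1b1, Cyp26a1 and Cyp27b1. These are matches of letters, not measured binding sites.

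Of the 56, 34 had their highest mean over air rats in liver, 30 of them by over 1 log2 to the next tissue, and these 30 are called liver-type below. Examples are Cyp3a2 (12.09 in liver, 3.98 in kidney), Cyp2c13 (12.59 and 3.83) and the bile acid enzyme Cyp7a1 (10.22 in liver, 4.22 in blood). Kidney led for Cyp4a8, a fatty acid hydroxylase (11.41 ± 0.13 (SD, n = 14) against 6.08 in liver), and lung for Cyp4b1 (10.80) and Cyp2a3 (7.17). Brain led for Cyp46a1 (8.13), which turns cholesterol into its exported hydroxylated form. Por was measured well in every organ, at 8.41 ± 0.18 (SD, n = 14) in kidney, 8.09 ± 0.32 in liver, 7.96 ± 0.31 in lung, 7.46 in heart, 7.14 in brain and 6.14 in blood. Differences between these levels were not tested. Cyp2u1 was spread more evenly, from 5.42 in heart to 5.98 in blood. Cyp11a1, which makes the first cut in steroid synthesis, stood at 6.48 ± 0.39 (SD, n = 14) in heart and between 2.64 and 2.93 in the other 4 organs.

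**Figure D1:**
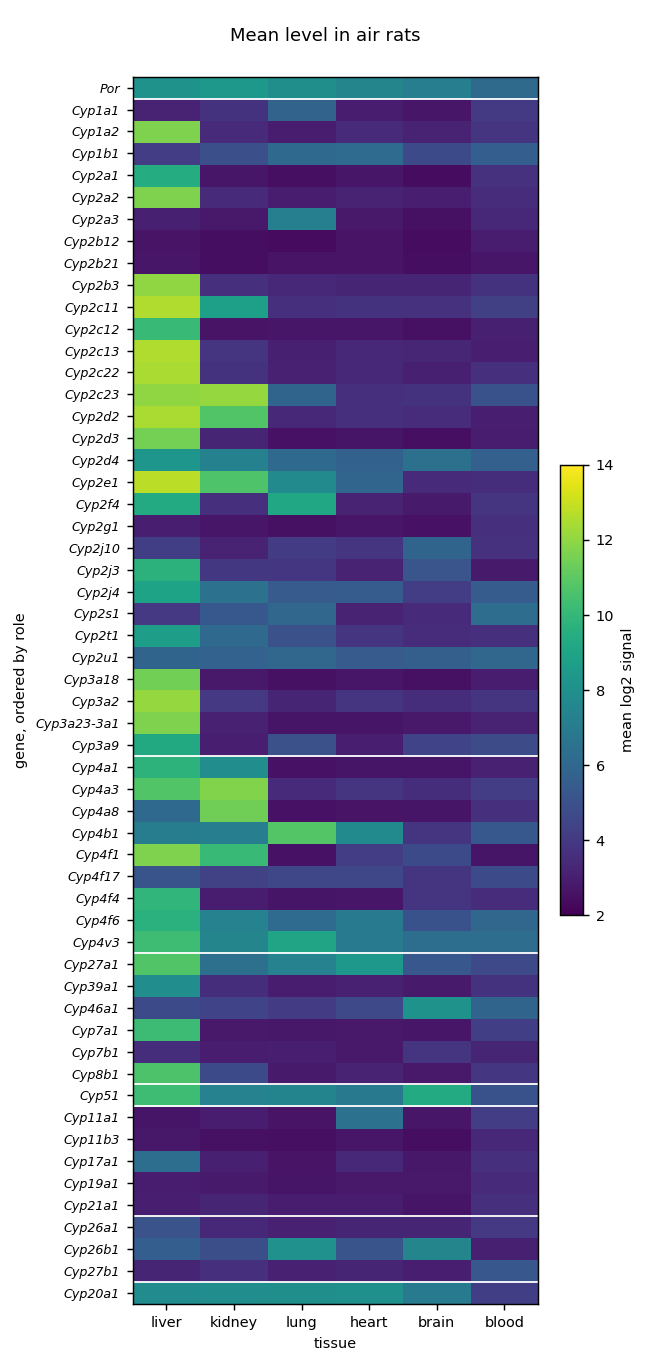
Mean log2 signal of the 56 members (rows, ordered by role and separated by white lines) in air rats of each tissue (columns; 14 arrays per organ and 9 for blood), all times together. Most rows are brightest in liver, while Cyp2u1 is close to even across the organs. Por is lower in heart, brain and blood than in liver, kidney and lung.

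Because liver is so rich in these transcripts, a trace of liver RNA on an array of another organ shows as P450 signal. On 20 arrays of heart, kidney, lung and brain the mean of 12 hepatocyte markers stood at least 2 log2 above the median array of that organ, 13 of exposed and 7 of air rats. The excess was largest on the exposed hearts of Rat729 at 3 h (8.91) and Rat741 at 24 h (8.56) and on the exposed lung of Rat716 at 1 h (8.24), and the kidney with the largest was that of air Rat720 at 1 h (5.21). The mean of the 30 liver-type members moved with it: 5.64, 5.21, 4.33 and 2.07 above the median on these 4 arrays. On the arrays outside the 20, that mean lay between -0.16 and 0.23 of the median in lung and between -0.15 and 0.33 in heart. It lay between -0.20 and 0.38 in kidney and between -0.29 and 0.43 in brain. The lowest heart among the 20 stood at 0.30, so the ranges overlapped in heart. In lung at 1 h, Cyp2c11, a male-typical liver enzyme, had air values of 2.85, 2.88, 3.06 and 3.18 and exposed values of 3.05, 3.46, 3.54 and 11.90. The difference of 2.49 ± 1.21 (padj = 0.276, limma) rests on that 1 lung, and in that comparison 25 of the 30 liver-type members had a positive difference. Without that lung the median over the 30 moved from 1.08 to -0.01, with 14 positive. In kidney at 1 h 29 of the 30 were negative, with a median of -0.41, and without the air kidney of Rat720 22 were negative, with a median of -0.10. One liver array went the other way: that of exposed Rat741 at 24 h carried distal nephron markers 5.73 above the liver median. Its Cyp4a8 value was 9.75 against 4.01, 4.41 and 5.37 in its group. Markers of other tissues were also high on some arrays. Skeletal muscle markers reached 9.33 in liver (median 2.68) and 10.94 in lung (median 4.03). Alveolar type 2 markers reached 10.12 in heart (median 3.00). Arrays were left out by their hepatocyte markers only. Each result below is given without the 20 arrays where that ends its call, and the part of the liver transcripts in the other differences was not tested.

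**Figure D2:**
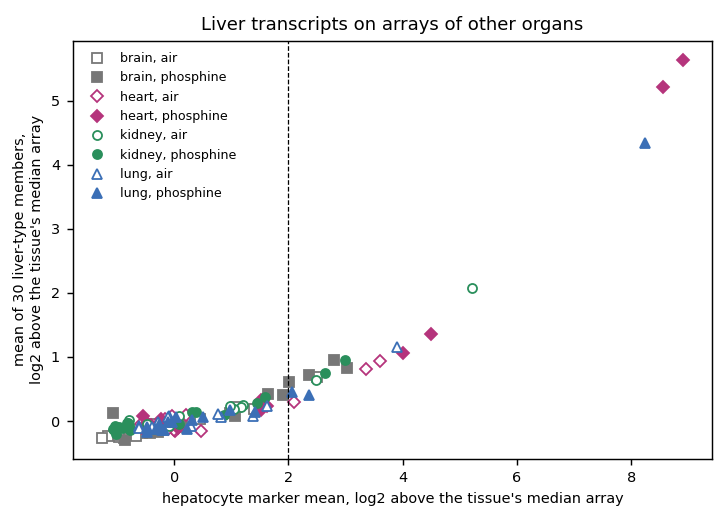
Each point is 1 array of brain, heart, kidney or lung. The x axis gives the mean of 12 hepatocyte markers and the y axis the mean of the 30 liver-type members, both in log2 above the median array of that organ, and the dashed line marks 2 log2. The 3 arrays at the upper right are 2 hearts and 1 lung of exposed rats, between 4.33 and 5.64 on the y axis.

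The counts of members called stand here beside the share of all genes called. In liver 1 of 56 was called at 1 h (0.335% of all genes), 2 at 3 h (3.85%), 0 at 6 h (0.223%) and 0 at 24 h (0%). In kidney 1 was called at 1 h (3.12%), 5 at 3 h (6.39%), 2 at 6 h (0.35%) and 0 at 24 h (0%). In lung 2 were called at 1 h (5.8%), 2 at 3 h (11.6%), 0 at 6 h (0.0967%) and 0 at 24 h (0.00744%). Heart had 1 call at 3 h (3.33%) and 0 at 1 h (1.33%), 6 h (0.35%) and 24 h (0.0819%). Brain had 0 at each time (0.149%, 0.506%, 0% and 0% of all genes from 1 to 24 h), and blood 0 at 1 h (0.00744%), 3 h (6.6%) and 6 h (0.0521%). The share of members called was 8.93% in kidney and 3.57% in both liver and lung at 3 h. Where none was called, limma's unadjusted p was under 0.05 for 12 members in liver at 6 h (21.4%, against 9.21% of all genes) and 5 at 24 h (8.93% against 7.14%), and for 3 in kidney at 24 h (5.36% against 5.5%). In lung it was for 6 at 6 h (10.7% against 8.8%) and 0 at 24 h (against 3.16%), and in heart for 2, 4 and 2 at 1, 6 and 24 h (against 10.9%, 9.37% and 7.61%). In brain it was for 1, 3, 5 and 6 from 1 to 24 h (against 11%, 8.65%, 5.64% and 3.79%), and in blood for 5, 6 and 3 (against 7.72%, 22.4% and 10.2%). The median difference over the 56 members lay between -0.17 and 0.18 in the 12 comparisons of liver, kidney and lung, and that over all genes between -0.03 and 0.01.

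**Figure D3:**
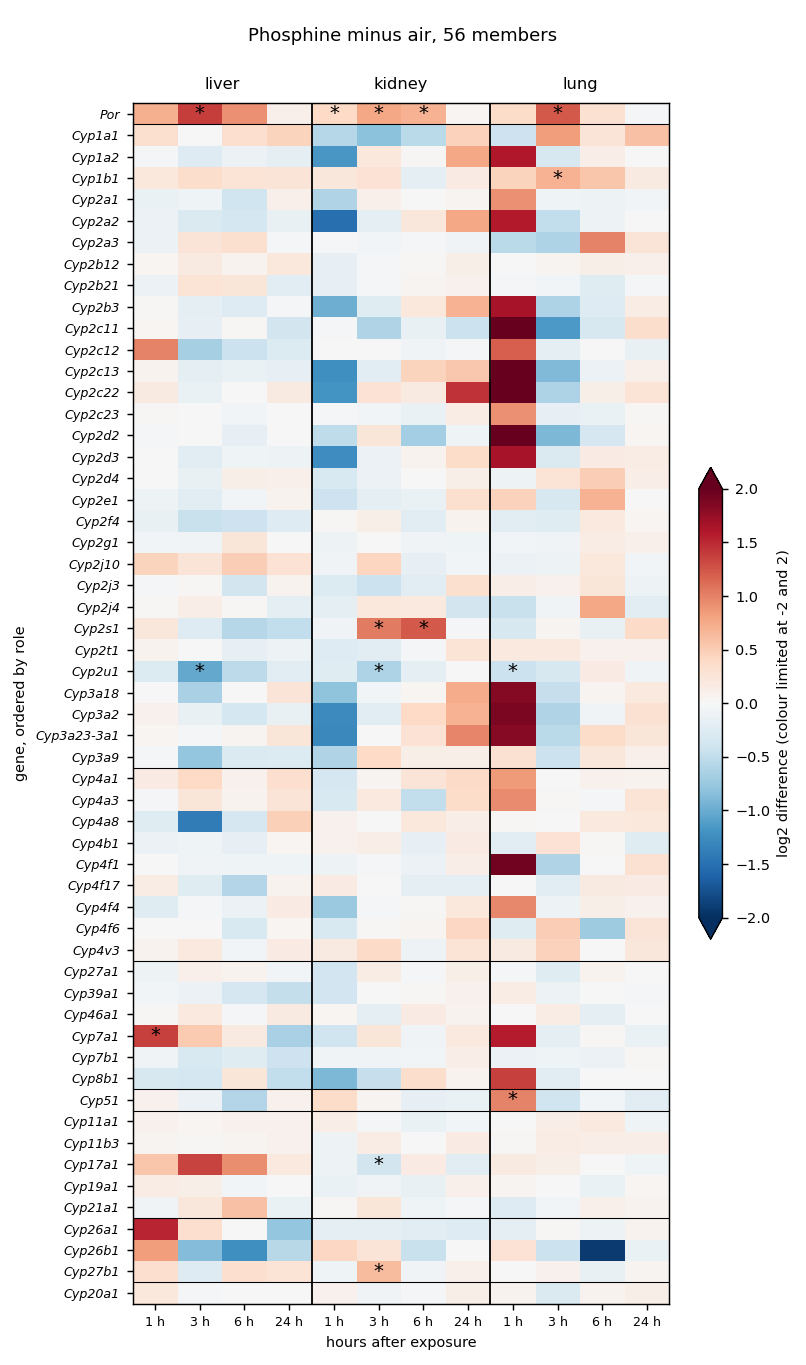
Log2 difference, phosphine minus air, of the 56 members (rows, ordered by role) in liver, kidney and lung at 1, 3, 6 and 24 h (columns), with an asterisk where the gene was called. The row of Por is red in all 3 organs at 1, 3 and 6 h, and many liver-type members are red in lung and blue in kidney at 1 h, the comparisons that hold the lung of Rat716 and the kidney of Rat720.

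Por, the electron donor of the microsomal P450s (probe set 1387109_PM_at), rose in liver, kidney and lung at 3 h and was back near the air level by 24 h. In liver at 3 h the air rats had 7.68, 7.82, 8.13 and 8.16 and the exposed rats 8.92, 9.16, 9.58 and 9.69. The groups were apart, with a difference of 1.39 ± 0.19, or 2.62-fold (padj = 6.01e-05, limma). In lung at 3 h the air values were 7.55, 7.81, 7.85 and 7.92 and the exposed values 8.75, 8.93, 9.06 and 9.28, a difference of 1.22 ± 0.16, or 2.33-fold (padj = 2.09e-05). In kidney at 3 h the air rats lay close together at 8.24, 8.25, 8.27 and 8.28, and the exposed rats at 8.71, 9.07, 9.13 and 9.20, a difference of 0.77 ± 0.10 (padj = 3.05e-05). All 3 calls held in each of the 9 alternative settings and with any 1 rat left out. Whether the rise at 3 h differed between the 3 organs was tested directly and missed the threshold (padj = 0.136).

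Kidney was the organ where Por was called longest. At 1 h its air kidneys had 8.21, 8.58, 8.61 and 8.63 and its exposed kidneys 8.77, 8.90, 8.93 and 9.03, so that the groups were apart by a small step (0.40 ± 0.10, padj = 0.0305). At 6 h the 2 air kidneys had 8.62 and 8.70 and the 4 exposed kidneys 9.13, 9.31, 9.48 and 9.52 (0.70 ± 0.12, padj = 0.00838). Both calls were lost in the fit with the rat as a replicate block over 5 tissues (padj = 0.252 at 1 h and 0.0731 at 6 h) and in the fit of only the 2 groups (padj = 0.212 and 0.143), the one at 1 h also with array median centring (padj = 0.0613). The 1 h call was also lost without Rat712, Rat719 or Rat727, and the 6 h call without either air rat. The effect of phosphine on Por differed between the 4 times in kidney (padj = 0.019) and in lung (padj = 0.00739), and missed the threshold in liver (padj = 0.0847). The call of a difference between times in kidney was lost without the arrays that carried liver transcripts, while the Por calls there at 1 and 6 h were not.

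In liver every exposed rat also lay above every air rat in Por at 1 h (air 8.08 to 8.35, exposed 8.65 to 9.14, 0.72 ± 0.19, padj = 0.125) and at 6 h (air 8.50 and 8.56, exposed 9.13 to 9.96, 0.91 ± 0.23, padj = 0.108). Both were called in the block fit and with the air rats of all times as control, and in neither case by the main test. At 24 h the differences were 0.10 ± 0.19 in liver, 0.05 ± 0.10 in kidney and -0.02 ± 0.16 in lung. In lung the differences were 0.37 ± 0.16 at 1 h (padj = 0.23) and 0.30 ± 0.20 at 6 h (padj = 0.73), with overlapping groups at both times. In heart at 3 h the air values were 7.32, 7.34, 7.52 and 7.68 and the exposed values 7.63, 8.01, 8.15 and 8.71, so that the groups overlapped. The call there (0.66 ± 0.16, padj = 0.0224) was lost without the arrays that carried liver transcripts, of which the heart of Rat729 had the highest value (0.46 ± 0.13, padj = 0.0879), in the fit of only the 2 groups (padj = 0.32), and without Rat730, Rat738 or Rat739. At 6 h the 2 air hearts, which both carried liver transcripts, had 7.37 and 7.63 and the exposed hearts 7.96 to 8.51 (0.68 ± 0.20, padj = 0.16). At 24 h the air hearts had 7.10 to 7.54 and the exposed hearts 7.63 to 7.86 (0.40 ± 0.16, padj = 0.5). The groups were apart at both of these times, neither was called, and the one at 6 h was called in the block fit (padj = 0.0239) and with pooled air rats (padj = 0.000623). In brain the Por differences lay between -0.10 and 0.22 and in blood between -0.41 and 0.41, and none was called. A second Por probe set, 1368213_PM_at, gave 1.25, 0.72 and 1.58 in liver, kidney and lung at 3 h.

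**Figure D4:**
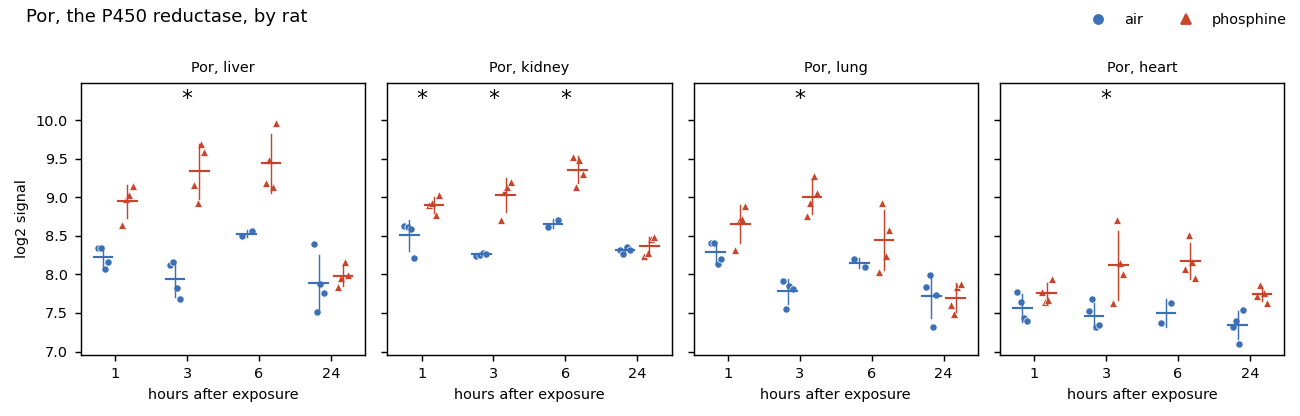
Log2 signal of Por in each rat by hours after exposure in liver, kidney, lung and heart, with group means (horizontal bars), ± 1 SD (vertical lines) and an asterisk where the difference was called. Exposed and air rats are fully apart at 3 h in liver, kidney and lung and meet again at 24 h.

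Among the 30 enzymes of families 1 to 3, none of the calls was of an abundant liver enzyme. In liver 0 rose and 1 fell at 3 h, where 3.85% of all genes were called, with a median of -0.14 over the 30. None was called in liver at 1, 6 and 24 h, where 0.335%, 0.223% and 0% of all genes were. Cyp1a2 differed by -0.26 to -0.02 over the 4 times, Cyp2e1, the ethanol-inducible form, by -0.20 to 0.07 and Cyp3a2 by -0.35 to 0.08, with SEs of 0.09 to 0.17. Cyp1a1, the classic Ah receptor target, was low in liver (3.15 in air) and differed there by 0.00 to 0.45 with SEs of 0.28 to 0.34. In lung, where its air level was highest (5.80 ± 1.25 (SD, n = 14)), it differed by -0.42 to 0.83 with SEs of 0.67 to 0.82. Cyp2c12, a female-typical form, spread widely within groups in liver (SEs of its differences 0.67 to 0.82), where 26 arrays lay between 9.64 and 11.36 and the other 4, exposed and air, between 7.51 and 8.75.

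Cyp2u1, a hydroxylase of long-chain fatty acids (probe set 1398710_PM_at), was the one member that fell in more than 1 organ. In liver at 3 h the air rats had 5.45, 5.63, 6.21 and 6.23 and the exposed rats 4.75, 4.82, 4.84 and 4.99, with no overlap (-1.03 ± 0.26, padj = 0.0218). In kidney at 3 h the values were 5.47, 5.71, 5.83 and 5.85 in air and 4.98, 5.02, 5.13 and 5.28 after phosphine (-0.62 ± 0.10, padj = 0.000302). In lung it fell at 1 h, from 5.51, 5.78, 5.88 and 5.96 to 5.21, 5.34, 5.39 and 5.44 (-0.44 ± 0.12, padj = 0.025). In lung at 3 h it differed by -0.32 ± 0.12 (padj = 0.0785). The kidney call held in all settings and left-out rats, the liver call in all 9 settings but not without Rat730, Rat731, Rat732 or Rat738. The lung call was lost without the arrays that carried liver transcripts (-0.39 ± 0.14, padj = 0.106), in the fit of only the 2 groups (padj = 0.118), in the block fit (padj = 0.172) and without Rat716, Rat719, Rat720, Rat721 or Rat726. At 24 h the differences were -0.20 in liver and -0.06 in lung.

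Cyp2s1, a form found mainly outside the liver in epithelia (probe set 1390282_PM_at), rose in kidney. At 3 h the air kidneys had 5.01, 5.25, 5.26 and 5.55 and the exposed kidneys 5.99, 6.08, 6.27 and 6.86 (1.03 ± 0.17, padj = 0.000429). At 6 h the 2 air kidneys had 5.53 and 5.55 and the exposed kidneys 6.55, 6.72, 6.73 and 7.05 (1.22 ± 0.21, 2.33-fold, padj = 0.00709). All exposed kidneys lay above all air kidneys at both times, and at 1 and 24 h the differences were -0.06 ± 0.17 and -0.04 ± 0.17. In liver Cyp2s1 differed by -0.26 ± 0.30 at 3 h and -0.58 ± 0.37 at 6 h, and in lung by 0.05 ± 0.23 and -0.15 ± 0.28. The effect differed between the 3 organs at 3 h (padj = 0.0196) and 6 h (padj = 0.0453) and between times in kidney (padj = 0.00527). The 6 h call was lost without either of the 2 air rats, the difference between organs at 3 h without Rat729, Rat730, Rat732 or Rat739, and the difference between organs at 6 h without the 20 arrays or without any 1 rat of that time but Rat758.

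Cyp1b1, which oxidises estrogens and polycyclic hydrocarbons (probe set 1368990_PM_at), rose in lung at 3 h. The air lungs had 5.73, 6.00, 6.23 and 6.56 and the exposed lungs 6.62, 6.86, 6.89 and 6.94 (0.69 ± 0.17, padj = 0.00684), just apart, and the call held in all settings and left-out rats. At 1, 6 and 24 h the lung differences were 0.44, 0.55 and 0.19, none called. In liver Cyp1b1 differed by 0.21 to 0.35 and in kidney by -0.20 to 0.29 over the 4 times. Lung's own Cyp2a3 differed by -0.54 at 1 h, -0.62 at 3 h, 0.99 at 6 h and 0.26 at 24 h, and the test of a difference between its times missed the threshold (padj = 0.0673). The 2 measured markers of club cells, which carry many lung P450s, had group means between 11.24 and 11.82 in lung. Their mean on single lung arrays ran from 10.20 to 12.38.

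**Figure D5:**
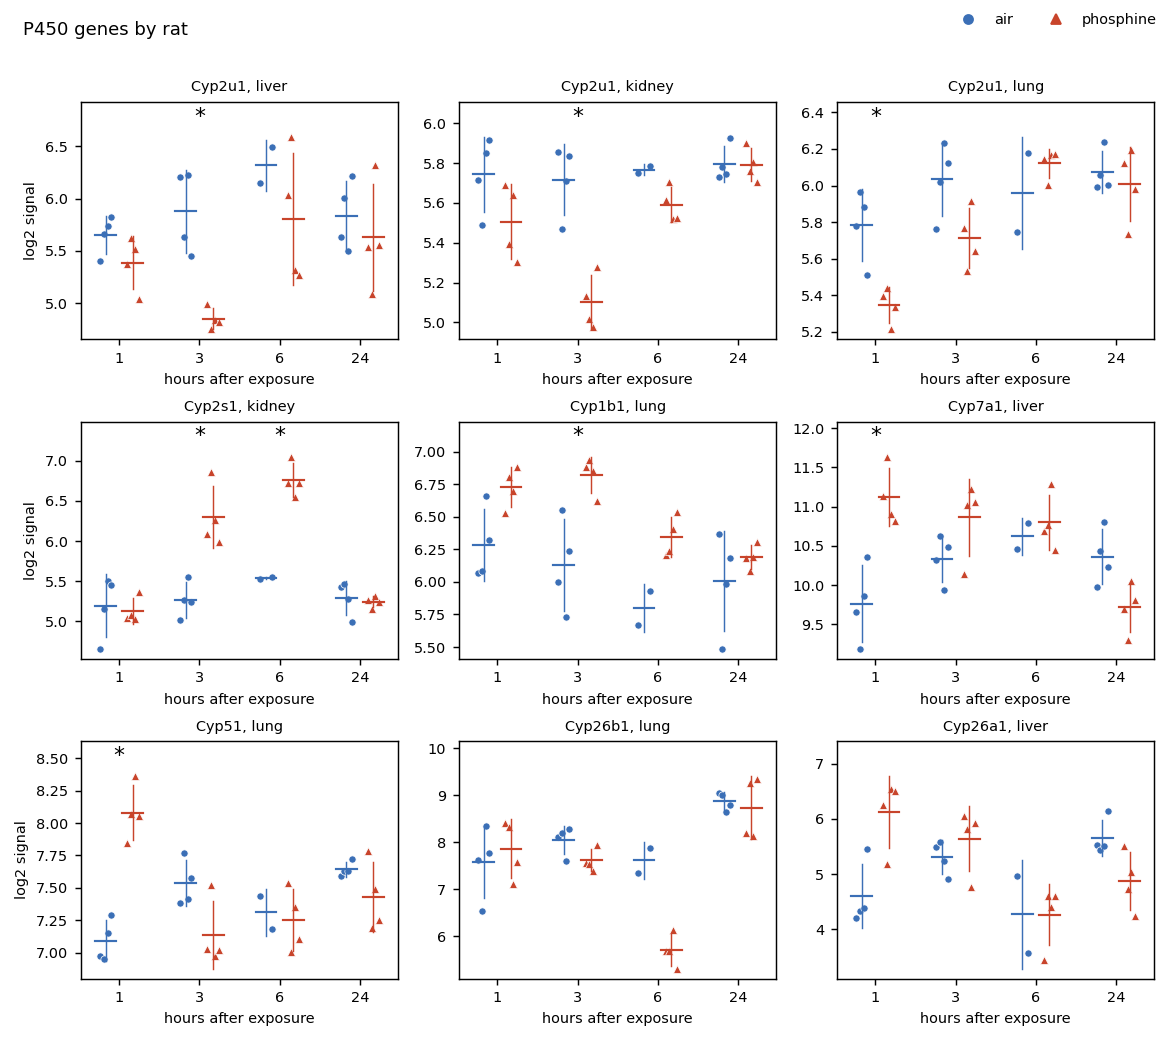
Log2 signal by rat and hours after exposure of 7 P450 genes in the organs where they were called or lay nearest to it, with group means (horizontal bars), ± 1 SD (vertical lines) and an asterisk where the difference was called. Cyp2u1 is low in exposed rats at 3 h in liver and kidney, Cyp2s1 is high in kidney at 3 and 6 h, Cyp51 is high in lung at 1 h alone, and Cyp26b1 in lung at 6 h is low in all 4 exposed rats without a call.

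Of the 6 genes of bile acid and oxysterol metabolism, 1 rose in liver at 1 h, where 0.335% of all genes were called. None was called at another time. Cyp7a1, which sets the pace of bile acid synthesis (probe set 1368458_PM_at), had 9.18, 9.65, 9.86 and 10.36 in air livers at 1 h and 10.82, 10.90, 11.14 and 11.64 in exposed livers. The groups were apart and the difference was 2.57-fold (1.36 ± 0.26, padj = 0.0119). The difference was 0.52 ± 0.26 at 3 h, 0.18 ± 0.32 at 6 h and -0.64 ± 0.26 at 24 h, and the effect differed between times (padj = 0.0392), a call lost with most single rats left out. The 1 h call was lost in the fit of only the 2 groups (padj = 0.114), in the block fit (padj = 0.326), whose spread comes from all 5 organs, and without Rat712, Rat720 or Rat721. Cyp8b1, which decides the ratio of the primary bile acids, differed by -0.49 to 0.24 in liver over the 4 times with no call.

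Cyp51, the lanosterol demethylase of cholesterol synthesis (probe set 1367979_PM_s_at), rose in lung at 1 h alone. The air lungs had 6.95, 6.98, 7.15 and 7.29 and the exposed lungs 7.84, 8.05, 8.07 and 8.36 (0.99 ± 0.14, 1.98-fold, padj = 6.8e-05), and the call held in all 9 settings and without any 1 rat. A second probe set gave 0.73 ± 0.19 (padj = 0.0234, in a separate fit and adjusted over all probe sets but the controls). At 3 h the sign turned: 3 exposed lungs had 6.97, 7.02 and 7.03, the lung of Rat729 had 7.52, and the air lungs lay between 7.39 and 7.77 (-0.40 ± 0.14, padj = 0.0671). The effect differed between the times in lung (padj = 0.000554) and between the 3 organs at 1 h (padj = 0.0292), where kidney had 0.36 ± 0.15 and liver 0.09 ± 0.16. The call between organs was lost without the arrays that carried liver transcripts and without Rat712, Rat716, Rat719, Rat720 or Rat726.

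The retinoic acid hydroxylases Cyp26a1 and Cyp26b1 differed without being called. In lung at 6 h Cyp26b1 had 7.34 and 7.89 in the 2 air rats and 5.30, 5.67, 5.69 and 6.12 in the exposed rats (-1.92 ± 0.40, padj = 0.0518). It was called with quantile normalization, median centring, dim genes left out, the mean of its probe sets, pooled air rats, the block fit (padj = 0.0011) or without the arrays at the 4 log2 limit on liver transcripts, but not in the fit of only the 2 groups (padj = 0.358) or without the arrays at the 2 log2 limit (padj = 0.102). A second probe set gave -1.39 ± 0.28 (padj = 0.0357). That padj is from a separate limma fit, adjusted over all probe sets but the controls, so it is not on the scale of the padj over genes. Its effect in lung differed between times (padj = 0.0378), a call lost with several single rats left out, and the other lung differences were 0.29 at 1 h, -0.43 at 3 h and -0.13 at 24 h. In liver Cyp26b1 differed by -1.22 ± 0.39 at 6 h. Cyp26a1 in liver at 1 h had 4.20, 4.34, 4.40 and 5.46 in air and 5.18, 6.26, 6.51 and 6.55 after phosphine, with 1 pair out of order (1.53 ± 0.37, padj = 0.0748). It was called in the block fit (padj = 1.45e-05), with dim genes left out (padj = 0.0488) and without Rat712 or Rat727. In kidney and lung at 1 h it differed by -0.18 and -0.17, and the effect differed between the 3 organs (padj = 0.00234).

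Cyp27b1, which makes the active hormone form of vitamin D in kidney, was called there at 3 h, at a low level. The air kidneys had 3.42, 3.70, 3.80 and 3.80 and the exposed kidneys 3.78, 4.23, 4.55 and 4.66, overlapping at the lower end (0.63 ± 0.18, padj = 0.0348). In liver and lung at that time it differed by -0.25 and 0.08, and the effect differed between organs (padj = 0.023), a call lost without Rat730, Rat731, Rat733 or Rat739. The median of all probe sets is 4.59, so these values lie among the dim ones, and the call was lost with 6 of the 8 rats left out in turn and in the fit of only the 2 groups (padj = 0.0914).

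Of the 5 steroid genes, Cyp17a1, on the route to androgens, was lower in kidney at 3 h, from 3.00, 3.02, 3.11 and 3.13 to 2.54, 2.69, 2.72 and 2.84 (-0.37 ± 0.11, padj = 0.0459). All of these values are dim, well under the median of all probe sets (4.59). The call was lost with median centring, in the block fit (padj = 0.734) and with 7 of the 8 rats left out in turn. The adrenal markers in kidney were flat, with array means from 3.22 to 3.71, and Cyp11a1 and Cyp21a1 differed in kidney by -0.13 to 0.13 and -0.09 to 0.25. In liver Cyp17a1 had 5.66, 5.84, 6.23 and 7.29 in air at 3 h and 6.64, 7.28, 8.01 and 8.49 after phosphine (1.35 ± 0.41, padj = 0.0623). That difference was called in the block fit (padj = 0.000188), with pooled air rats (padj = 0.011), with dim genes left out (padj = 0.0398) and without Rat728 or Rat738. Its effect at 3 h differed between the organs (padj = 0.00214). None of the 9 fatty acid hydroxylases of family 4 was called in any organ, where 0% to 11.6% of all genes were called per comparison. In liver their median was -0.04 at 3 h, and Cyp4a1, a target of the fatty acid receptor PPAR alpha, differed by 0.09 to 0.40 over the 4 times.

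Direct tests of a difference of the effect gave 12 calls on the members. Between times they gave 1 in liver (0.476% of all genes), 2 in kidney (1.75%), 3 in lung (6.38%) and 0 in brain (0.0893%) and heart (0.424%). Between liver, kidney and lung they gave 2 at 1 h (1.33%), 3 at 3 h (8.65%), 1 at 6 h (0.469%) and 0 at 24 h (0.0298%). Among the members next in the order of p, Cyp26b1 (padj = 0.108), Cyp26a1 (padj = 0.131) and Cyp3a18 (padj = 0.441) in liver, and Cyp2t1 (padj = 0.0531), Cyp2u1 (padj = 0.0648) and Cyp7a1 (padj = 0.168) in kidney, missed the threshold between times, as did Cyp2u1 (padj = 0.126) in lung. Between organs Cyp7a1 (padj = 0.11), Cyp2d3 (padj = 0.122) and Cyp2a2 (padj = 0.137) missed it at 1 h and Cyp2a3 at 3 h (padj = 0.126). At 6 h Cyp2a3 (padj = 0.434), Cyp21a1 (padj = 0.491), Cyp26b1 (padj = 0.496) and Cyp4f17 (padj = 0.604) missed it.

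The genes around the P450s were read from lists of regulators, electron partners, heme enzymes, the Ah receptor battery and other phase 1 enzymes. Of 18 measured regulators, 1 rose and 2 fell in liver at 3 h, 3 fell in kidney at 3 h and 3 fell in lung at 3 h. Of all genes, 3.85%, 6.39% and 11.6% were called in these comparisons. The Ah receptor gene Ahr fell in kidney (-0.48 ± 0.12, padj = 0.0162) and lung (-0.92 ± 0.24, padj = 0.0148) at 3 h, and so did the glucocorticoid receptor gene Nr3c1 (-0.41 ± 0.08, padj = 0.0025, and -0.47 ± 0.10, padj = 0.00286). The pregnane receptor gene Nr1i2, a driver of family 3, fell in kidney at 3 h (-0.62 ± 0.17, padj = 0.0247). In liver the oxidative stress factor Nfe2l2 fell at 1 h (-0.82 ± 0.16, padj = 0.0136) and 3 h (padj = 0.000357), and the hepatocyte factor Hnf4a rose at 3 h (0.42 ± 0.10, padj = 0.0185). None of the 3 measured genes of the Ah receptor battery was called in liver, kidney or lung, where 0% to 11.6% of all genes were called per comparison.

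Of the 12 heme genes, Hmox1, the heme-degrading oxygenase that also takes electrons from Por, rose in kidney at 1 h (1.70 ± 0.35, padj = 0.00695) and 3 h (2.05 ± 0.35, padj = 0.000594) and fell in lung at 1 h (-0.68 ± 0.18, padj = 0.0235). Alas1, the first enzyme of heme synthesis, rose in lung at 1 h (0.69 ± 0.19, padj = 0.0271). That call was lost without the arrays that carried liver transcripts (padj = 0.056), though the difference was no smaller (0.70 ± 0.21). Alad, the next enzyme of that route, fell in liver (-0.31 ± 0.08, padj = 0.0337) and lung (-0.55 ± 0.12, padj = 0.00218) at 3 h. Of the 9 other phase 1 enzymes, the flavin monooxygenase Fmo1 fell in lung at 1 h (-0.78 ± 0.13, padj = 0.000494) and 3 h (-0.85 ± 0.13, padj = 0.00011), and the amine oxidases Maoa (-0.71 ± 0.11, padj = 0.000148) and Maob (-0.76 ± 0.14, padj = 0.000689) fell in lung at 3 h. Maoa rose in kidney at 1 h (0.49 ± 0.12, padj = 0.0232) and Fmo2 in lung at 6 h (0.85 ± 0.17, padj = 0.0418). Both calls were lost without the arrays that carried liver transcripts (padj = 0.0505 and 0.129). The differences were then 0.52 ± 0.13 for Maoa, no smaller than before, and 0.74 ± 0.17 for Fmo2. In kidney at 3 h, where 6.39% of all genes were called, 2 rose and 2 fell. Fmo2 (0.43 ± 0.10, padj = 0.00952) and Ephx1 (0.30 ± 0.09, padj = 0.0311) were higher. Fmo1 (-0.25 ± 0.07, padj = 0.0279) and Fmo4 (-0.42 ± 0.13, padj = 0.0443) were lower. Ephx1 and Fmo4 were not called in the fit without the arrays that carried liver transcripts (padj = 0.0531 and 0.0691). None of those arrays was a kidney at 3 h, so both differences were unchanged. Only their SEs grew, from 0.086 to 0.092 and from 0.126 to 0.135. Of the 5 electron partners besides Por, 1 was called in liver, kidney or lung, the ferredoxin Fdx1 in lung at 1 h (0.41 ± 0.11, padj = 0.0275). In that comparison 5.8% of all genes were called. The Fdx1 call was lost without the arrays that carried liver transcripts (0.34 ± 0.12, padj = 0.11).

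In heart, brain and blood the members showed no call beyond Por in heart. The largest differences in heart were those of liver-type genes on single arrays, such as Cyp2c13 at 3 h (2.53 ± 1.65, padj = 0.424). Of the 30 liver-type members, 30 had a positive difference in heart at 3 h and 29 at 24 h, the times of the hearts of Rat729 and Rat741, with a median of 1.56 at 3 h. In heart at 6 h both air arrays carried liver transcripts (excess 3.36 and 3.61), and leaving out the 4 hearts at the 4 log2 limit, all of exposed rats, gave 12 members lower, in a fit that called 2.16% of all genes. In brain Cyp2c11 differed by 2.01 ± 0.89 at 6 h (padj = 0.858), when the exposed brain of Rat761 had a hepatocyte excess of 3.03. Blood had a single air array at 6 h, and Cyp27b1, whose air level there was its highest of all tissues (5.26), differed by -1.92 ± 0.57 (padj = 0.189).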

How the data were processed

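Total RNA of 174 samples of 33 rats was measured on single-colour Affymetrix rat arrays. The authors deposited log2 signals per probe set, made with RMA and Partek per the submitters' processing notes, with versions and whether organs were normalized together not given in the sources used here. Values run from 1.74 to 14.13 over 31139 probe sets, of which 97 are controls, 19063 list 1 gene, 572 several and 11407 none. Arrays have no read depth, and their number limits the precision.

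For every tissue, limma 3.58.1 (R 4.3.3) estimated 1 mean for each exposure at each time, over all 13438 genes and with no filter on dim genes. Phosphine minus air at each time was tested with eBayes, and differences of the effect between times, or between liver, kidney and lung, with the moderated F. P-values were Benjamini-Hochberg adjusted over all genes, and those of second probe sets over all probe sets but the controls. The spread came from all arrays of the tissue, so that groups of 2 air rats, or 1 in blood, could be tested. The 2 exposed blood samples at 24 h have no air group and were not compared. As a check of RNA quality, the log2 signal at the 3' end less that at the 5' end, averaged over 3 control transcripts, was set between groups in an exact two-sided permutation test. The smallest p that 4 against 4 rats allow, 0.0286, was reached in liver at 1 h (-0.147) and brain at 3 h (-0.155), each with an adjusted p of 0.329 over 23 comparisons.

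The members and lists were chosen with earlier results of these data known. Named genes are every called member, the panel Por, Cyp1a1, Cyp1a2, Cyp1b1, Cyp2e1, Cyp3a2, Cyp4a1, Cyp7a1, Cyp8b1, Cyp26a1, Cyp27b1 and Cyp51 in liver, kidney and lung, up to 5 genes per test of a difference that called a member, and the steroid genes in kidney. Cyp2b1 and Cyp24a1, also in the panel, lack a probe set that lists a single gene and are not analysed here. Other genes named (Cyp2c11, Cyp2c12, Cyp2c13, Cyp4a8 and those with air levels alone) were chosen after their values were seen. Groups compared share no rat, so no pairing within a tissue exists. The numbers in the labels tie the organs of a rat together, and the correlation of a rat's deviations across 5 organs was 0.0268. The pathway lists and the medians of the liver-type members without arrays carrying liver transcripts are alternatives chosen after seeing the data. The method was tested on simulated data. Promoter windows are RefSeq's (GRCr8), matched by symbol for 45 of 56 members. Figures were drawn with python 3.11.15.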

Additional observations from a re-analysis of the deposited data

Results flagged for a closer look

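In 6 of 96 groups of 4 or 5 rats behind the values above, 1 rat stood apart from the rest by more than a fixed share of the group's range, and chance flags about 1 in 20 such groups. Por in air kidneys at 1 h was 8.21 in Rat727 and between 8.58 and 8.63 in the others. Cyp51 in exposed lungs at 3 h was 7.52 in Rat729 and between 6.97 and 7.03 in the others. Cyp26a1 in air livers was 5.46 in Rat727 at 1 h, with the others between 4.20 and 4.40, and 6.15 in Rat751 at 24 h, with the others between 5.44 and 5.52. Cyp2s1 in exposed kidneys at 1 h was 5.36 in Rat719 and between 5.02 and 5.08 in the others. Cyp2u1 in exposed lungs at 6 h was 6.00 in Rat760 and between 6.15 and 6.17 in the others.

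The effect of phosphine differed between liver, kidney and lung, by limma's moderated F, for Cyp26a1 (padj = 0.00234) and Cyp51 (padj = 0.0292) at 1 h, for Cyp17a1 (padj = 0.00214), Cyp2s1 (padj = 0.0196) and Cyp27b1 (padj = 0.023) at 3 h, and for Cyp2s1 at 6 h (padj = 0.0453). It differed between times for Cyp7a1 in liver (padj = 0.0392), for Cyp2s1 (padj = 0.00527) and Por (padj = 0.019) in kidney, and for Cyp51 (padj = 0.000554), Por (padj = 0.00739) and Cyp26b1 (padj = 0.0378) in lung.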

How the results depend on the processing

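All 16 calls kept their direction in each setting and with each rat left out, and Por in liver, kidney and lung at 3 h, Cyp2u1 and Cyp2s1 in kidney at 3 h, Cyp51 in lung at 1 h and Cyp1b1 in lung at 3 h stayed called throughout. Counts of members called moved as follows. The share of all genes called in the same fit is in parentheses. With air rats of all times pooled they were 2 in liver at 1 h (1.81%), 7 at 3 h (7.25%) and 11 at 6 h (7.21%), 5 in lung at 1 h (13.6%) and 2 at 6 h (3.19%), and 1, 2 and 2 in heart at 1, 3 and 6 h (4.07%, 7.98% and 5.91%). With the rat as a replicate block over 5 tissues they were 2, 4 and 3 in liver at 1, 3 and 6 h (2.49%, 11.2% and 2.92%), 0 in kidney at 1 h (1.32%) and 1 at 6 h (0.246%), 1 in lung at 1 h (3.91%) and 1 at 6 h (0.104%), and 10, 1 and 1 in heart at 3, 6 and 24 h (12%, 2.17% and 2.37%). The block moved no count of the differences between organs by over 1.5 times. In the fit of only the 2 groups they were 0 in liver (0.0595%) and kidney (0.29%) at 1 h, 1 in kidney at 6 h (0.0521%), 1 in lung at 1 h (0.982%) and 0 in heart at 3 h (0.0967%). Median centring gave 0 in kidney at 1 h (3.16%). Leaving out dim genes gave 2 in liver at 1 h (0.719%) and 3 in kidney at 3 h (11.1%). These 2 settings, quantile normalization, the mean of probe sets and the 4 log2 limit each gave 1 in lung at 6 h (0.0967% to 0.285%). Without arrays carrying hepatocyte transcripts heart at 3 h had 0 at the 2 log2 (1.74%) and 4 log2 limit (1.96%) and heart at 6 h 12 at the 4 log2 limit (2.16%) and no value at 2 log2, where both air arrays were left out. At 2 log2 the effect differed between times in kidney for 1 member (0.499%) and between organs at 6 h for 0 (0.424%). Leaving out 1 rat gave 0 to 2 in liver at 1 h, 1 to 5 at 3 h, 0 to 1 in kidney at 1 h, 3 to 5 at 3 h and 0 to 2 at 6 h, 1 to 2 in lung at 1 h, 0 to 1 in heart at 3 h and 0 to 1 in blood at 3 h. For differences between times it gave 0 to 2 in liver and 2 to 4 in kidney, and between organs 1 to 4 at 1 h, 1 to 3 at 3 h and 0 to 1 at 6 h. The count fell to 0 without Rat720 or Rat721 in liver at 1 h, Rat712 or Rat719 in kidney at 1 h, Rat762 or Rat763 in kidney at 6 h and Rat729, Rat730, Rat738 or Rat739 in heart at 3 h, and was 5 in liver at 3 h without Rat728, 1 in blood without Rat733 and 4 between times in kidney without Rat733. The cause of these moves was not tested.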

Other observations

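Cyp11a1 was at 5.46 or above in each of the 30 hearts, exposed or air, and its largest difference there, -0.38 ± 0.31 at 1 h, was not called.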
